A study of Mus musculus with 2 samples.

Results

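Bone morphogenetic protein (BMP) ligands and the extracellular BMP antagonists were followed through wound dermis with and without Hedgehog (Hh) activation. The set held 9 of the 27998 genes in the count matrices and was chosen by symbol, with earlier results of these data known. It consisted of 5 ligands (*Bmp2*, *Bmp4*, *Bmp5*, *Bmp6* and *Bmp7*) and 4 antagonists (*Grem1*, *Nog*, *Fst* and *Chrdl1*). Tomato+ dermal cells sorted from healed skin wounds of mice aged 4 to 5 weeks were profiled by droplet single-cell RNA-seq, in which each unique molecular identifier (UMI) counts 1 captured transcript. The study compared 1 control library (SM22rtTA; tetO-Cre; R26-Tomato) with 1 *SM22-SmoM2* library (SM22rtTA; tetO-Cre; R26-SmoM2/Tomato). Both groups carried rtTA under the *SM22α* (*Tagln*) promoter, the tetO-Cre transgene and the Tomato reporter, and both were given doxycycline at 20 g/kg from day 1 after wounding. Only *SM22-SmoM2* mice carried SmoM2, a constitutively active Smoothened that switches on the Hh pathway in cells in which Cre has acted. Wounds were taken 3 days after complete reepithelialization, and wounds of several mice were pooled in each library, so that no value below has a replicate error and no test between conditions could be made.

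BMP ligands are secreted dimers that bind type I and type II serine/threonine kinase receptors and signal through phosphorylated Smads, which raise *Id* and *Msx* genes. Gremlin 1, Noggin, Follistatin and Chordin-like 1 are secreted proteins that bind ligands and keep them from their receptors, Follistatin doing so most strongly for activins. In skin, the balance between BMPs and their antagonists is known to govern hair placode formation and the hair cycle, and the dermal papilla (DP) at the base of the follicle is a source of both.

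The genes lie at separate loci of the GRCm38 build. The ligands *Bmp2* (chr2:133552159-133562885, plus strand), *Bmp4* (chr14:46383520-46390669, minus), *Bmp5* (chr9:75775364-75900310, plus), *Bmp6* (chr13:38345107-38500302, plus) and *Bmp7* (chr2:172868012-172940321, minus) were each found in the annotation by gene identifier, as were *Grem1* (chr2:113746164-113758646, minus), *Nog* (chr11:89300638-89302332, minus), *Fst* (chr13:114452290-114458951, minus) and *Chrdl1* (chrX:143285674-143394262, minus). Genes on the opposite strand overlap *Bmp4* (*Gm15217* and *Gm15222*), *Bmp5* (*Gm26903*), *Bmp6* (*Txndc5* and *4930579J19Rik*) and *Fst* (*Gm47040*). On the same strand, *Gm47723* overlaps *Bmp5*. Of these genes *Gm47723*, *4930579J19Rik* and *Gm47040* have no row in the counts. The strand counted is not given in the sources used here, so reads of these members and of the overlapping genes may not have been told apart. Promoter sequences of 4 members (*Bmp4*, *Bmp5*, *Bmp6* and *Grem1*) were matched in the RefSeq table of GRCm38.p6. Those of *Bmp4*, the ligand whose fibroblast value depends most on DP-like cells below, and of *Grem1*, the antagonist with the lowest ratio between the libraries in fibroblasts, are shown as the 250 bases before the transcription start, 5′ to 3′ on the gene's strand. Capitals mark motif matches.
Bmp4 promoter, chr14:46390670-46390919 (minus strand): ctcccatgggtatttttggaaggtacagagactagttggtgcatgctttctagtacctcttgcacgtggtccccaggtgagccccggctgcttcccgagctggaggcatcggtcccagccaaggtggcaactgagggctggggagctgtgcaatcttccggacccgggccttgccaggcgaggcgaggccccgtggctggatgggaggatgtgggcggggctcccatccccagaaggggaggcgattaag
Grem1 promoter, chr2:113758649-113758898 (minus strand): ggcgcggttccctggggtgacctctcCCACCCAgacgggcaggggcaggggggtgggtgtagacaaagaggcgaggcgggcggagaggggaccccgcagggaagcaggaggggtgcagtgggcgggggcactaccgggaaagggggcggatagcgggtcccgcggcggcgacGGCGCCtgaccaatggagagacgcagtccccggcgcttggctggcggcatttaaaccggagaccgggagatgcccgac
The Hh effector motif of GLI factors, GACCACCCA, was searched on both strands and was in neither sequence, and 0.225% of the 32851 RefSeq promoters of the same length hold it. Its last 7 letters, CCACCCA, occurred once in the *Grem1* sequence, at position -224 from the start site, and occur in 8.11% of all promoters. A GC-rich Smad motif, GGCGCC, occurred once in the *Grem1* sequence, at position -78, and occurs in 9.59% of promoters. The TCF/LEF motif CTTTGAT was in neither sequence and is in 3.21% of promoters.

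The control library held 2856 cells with a median of 8607.5 UMIs and the *SM22-SmoM2* library 1792 cells with a median of 8837.5 UMIs, after 22 and 10 cells with more than 10% mitochondrial UMIs had been left out. Cell types were rebuilt by clustering without the members, the other BMP pathway genes and Hh genes, and were named from marker lists. Fibroblast-like cells numbered 1090 of the control (38.2%) and 1099 of the *SM22-SmoM2* cells (61.3%), followed by Schwann-like cells (678 and 293), endothelial-like cells (608 and 226), mural cells with muscle markers (272 and 94) and immune-like cells (82 and 33), so the sorted cells were not of 1 type. Median depth in fibroblasts was 12473 UMIs (control) and 10941 UMIs (*SM22-SmoM2*). Of the fibroblasts with a sex call, 74.6% were male in the first and 94.4% in the second. *Ptch1*, an Hh receptor and target, was at 12.2 CPM (UMIs of the gene for every 1000000 UMIs) in control fibroblasts and 147 CPM in those with SmoM2, and *Tagln* UMIs were found in 35.7% and 46.5% of them. Levels below are CPM summed over the cells of a class with exact Poisson 95% intervals, ratios carry exact conditional 95% intervals, and all intervals cover counting error only. These 3′ counts are not scaled for transcript length, so levels are compared within a gene.

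Each member was detected mainly in 1 or a few lineages, and the ligands did not share a source. *Bmp4* was an endothelial transcript: endothelial cells held 74.2% of its 883 control UMIs and 53.6% of its 291 *SM22-SmoM2* UMIs, at 98.7 CPM (91.3 to 107) and 87.5 CPM (74.3 to 102). Among the lineages compared, control immune cells were next at 21.4 CPM (12 to 35.3), from 15 UMIs in 4 of 82 cells. Fibroblasts stood at 5.95 CPM (4.75 to 7.37) in control and 8.17 CPM (6.66 to 9.92) in *SM22-SmoM2*. After every cell was thinned to 2500 UMIs, *Bmp4* was found in 20.6% of control endothelial cells and 1.18% of Schwann cells, a type at 2.54 CPM (unthinned 49.8% and 1.77%, at median depths of 8724 and 5959.5 UMIs).

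*Bmp2* is a ligand known for its part in bone and cartilage formation. Among the lineages compared, it was highest in control mural cells at 25.6 CPM (18.9 to 34.0) and in control endothelial cells at 17.2 CPM (14.2 to 20.6), whose intervals overlapped. Control fibroblasts followed at 5.95 CPM (4.75 to 7.37) and Schwann cells at 1.69 CPM (0.732 to 3.34). The order in *SM22-SmoM2* was the same for mural (13.1 CPM), endothelial (6.17 CPM) and fibroblast cells (2.0 CPM), with overlapping intervals for the first pair.

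*Bmp5* was a mural transcript in the control, with 41 of 62 UMIs in mural cells (21.9 CPM, 15.7 to 29.7) against 0.567 CPM (0.245 to 1.12) in fibroblasts, while the *SM22-SmoM2* library had 14 UMIs in all, 4 of them mural. *Bmp6* was near the detection limit in every lineage, with 1 UMI in the control and 6 UMIs in the *SM22-SmoM2* library, all 6 in fibroblasts. *Bmp7*, a ligand known from the DP, was a fibroblast transcript: fibroblasts held 80.0% of its 150 control UMIs and 97.6% of its 127 *SM22-SmoM2* UMIs, at 8.50 CPM (7.05 to 10.2) and 9.93 CPM (8.26 to 11.8). Among the lineages compared, Schwann cells followed at 2.54 CPM (1.31 to 4.44) in control, below the fibroblast interval.

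Among the antagonists, *Grem1* was a fibroblast transcript in the control, where fibroblasts held 95.9% of 169 UMIs and stood at 11.5 CPM (9.78 to 13.4) against 0.635 CPM (0.131 to 1.86) in Schwann cells. In *SM22-SmoM2* fibroblasts held 31 of 35 UMIs (88.6%, with 70.1% of all UMIs) and Schwann cells the other 4, and the values of 2.48 CPM (1.69 to 3.52) and 1.99 CPM (0.541 to 5.09) had overlapping intervals. Mural and immune cells had 0 *Grem1* UMIs. *Nog* was led by Schwann cells in the control (7.84 CPM, 5.52 to 10.8) over fibroblasts (0.638 CPM, 0.292 to 1.21). In the *SM22-SmoM2* library the Schwann value of 4.97 CPM (2.38 to 9.14) and the fibroblast value of 2.32 CPM (1.56 to 3.34) had overlapping intervals. Fibroblasts held 29 of the 39 *Nog* UMIs there (74.4%, 57.9 to 87.0), close to their 70.1% of all UMIs. Among the 5 lineages compared, *Fst* was highest in Schwann cells, at 448 CPM (429 to 468) in the control library and 297 CPM (273 to 321) with SmoM2, followed by fibroblasts at 66.2 CPM (62.0 to 70.5) and 45.0 CPM (41.4 to 48.9). It was found in 48.8% of thinned control Schwann cells and 1.32% of control endothelial cells, the latter at 8.59 CPM (unthinned 68.1% and 4.77%). *Chrdl1* was shared by Schwann cells (12.3 CPM, 9.33 to 15.9) and fibroblasts (10.1 CPM, 8.54 to 11.9) in the control, with overlapping intervals, and the same held in *SM22-SmoM2* (16.4 CPM, 11.3 to 23.0, and 16.7 CPM, 14.5 to 19.1). Endothelial and mural cells had at most 2 *Chrdl1* UMIs in either library.

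**Figure D1:**
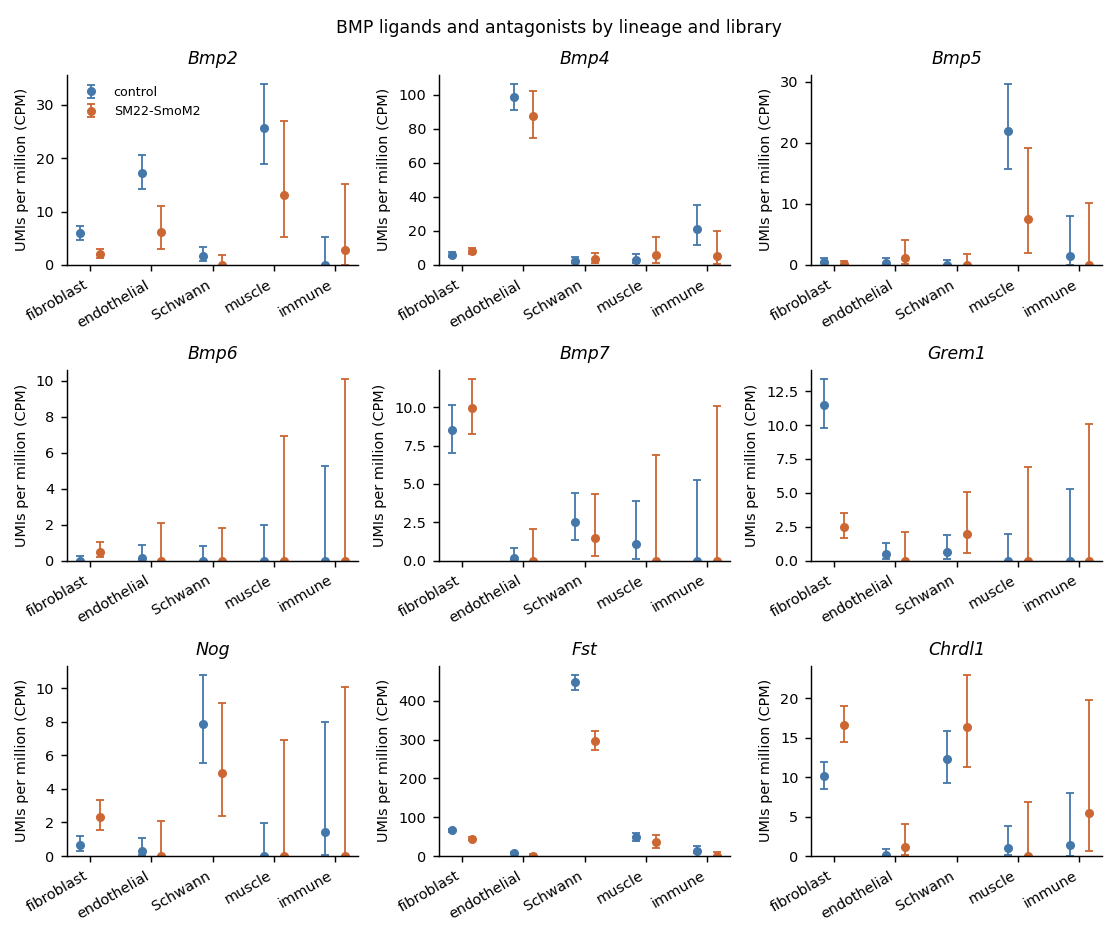
Summed CPM (vertical axes, linear, a separate scale for each gene) of the 9 members in 5 lineages (horizontal axes), with points for the control library in blue and the SM22-SmoM2 library in orange and bars for exact Poisson 95% intervals (counting error only). Bmp4 stands highest in endothelial cells (98.7 and 87.5 CPM), Bmp5 in control mural cells (labelled muscle, 21.9 CPM), Grem1 and Bmp7 in fibroblasts and Fst in Schwann cells (448 and 297 CPM).

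Between the libraries, *SM22-SmoM2* fibroblasts had less *Grem1* and *Bmp2* and more *Nog* than control fibroblasts. A member was counted as higher or lower when it had at least 20 UMIs over both libraries and differed by at least 2-fold. Of 9 members 7 had enough UMIs, 1 was higher, where 6.44% of all 13024 genes measured were, and 2 were lower, where 6.18% of all genes were. With 1 library per condition, the genotype, the pooled mice and the preparation cannot be told apart.

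*Grem1* showed the lowest ratio of the antagonists in fibroblasts. Control fibroblasts had 162 UMIs (11.5 CPM, 9.78 to 13.4) in 88 cells and *SM22-SmoM2* fibroblasts 31 UMIs (2.48 CPM, 1.69 to 3.52) in 22 cells, a log2 ratio of -2.21 (-2.81 to -1.65), or 4.62-fold lower. The share of thinned fibroblasts with *Grem1* was 2.84% in control and 0.728% in *SM22-SmoM2* (unthinned 8.07% and 2.0%), against 0 of 608 and 0 of 226 thinned endothelial cells. The intervals of both libraries did not overlap. Across all 13 alternatives of the processing its log2 ratio lay between -2.39 and -1.93.

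*Nog*, which encodes the antagonist Noggin found in the DP, had 9 UMIs (0.638 CPM, 0.292 to 1.21) in control and 29 UMIs (2.32 CPM, 1.56 to 3.34) in *SM22-SmoM2* fibroblasts, a log2 ratio of 1.87 (0.75 to 3.13). These 29 UMIs came from 27 cells with at most 2 UMIs each. In male cells alone the log2 ratio was 0.89, under the 2-fold limit, and after thinning too few UMIs remained for a value.

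*Bmp2* had 84 UMIs (5.95 CPM) in 45 control fibroblasts and 25 UMIs (2.0 CPM, 1.30 to 2.96) in 16 *SM22-SmoM2* fibroblasts, a log2 ratio of -1.57 (-2.28 to -0.91). The 10 cells with the most *Bmp2* held 54.8% of the control UMIs and 76.0% of the *SM22-SmoM2* UMIs, so that the difference rests on few cells. After thinning, 19 of 1090 control (1.74%) and 1 of 1099 *SM22-SmoM2* fibroblasts (0.0910%) had a *Bmp2* UMI (unthinned 4.13% and 1.46%), against 0% of thinned control Schwann cells. The log2 ratio was then -4.71, with that 1 cell on the *SM22-SmoM2* side. Across the 13 alternatives it lay between -4.71 and -0.19, so its size was not stable.

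The other 4 members with enough UMIs stayed within 2-fold. *Chrdl1* had 143 UMIs (10.1 CPM) in control and 208 UMIs (16.7 CPM) in *SM22-SmoM2* fibroblasts, a log2 ratio of 0.72 (0.40 to 1.04). *Fst* had 934 UMIs (66.2 CPM) and 562 UMIs (45.0 CPM), a log2 ratio of -0.56 (-0.71 to -0.40), and it was found in 11.7% and 6.82% of thinned fibroblasts (unthinned 30.9% and 16%). Both intervals leave out 0. *Bmp4* had 84 UMIs (5.95 CPM) and 102 UMIs (8.17 CPM), a log2 ratio of 0.46 (0.03 to 0.89), and *Bmp7* had 120 UMIs (8.50 CPM) and 124 UMIs (9.93 CPM), a log2 ratio of 0.22 (-0.15 to 0.60). *Bmp5* (8 and 3 UMIs) and *Bmp6* (0 and 6 UMIs) were too sparse for a comparison. Markers of other lineages were at low and like levels in both libraries' fibroblasts: the summed endothelial list reached 78.4 and 73.8 CPM (1.37% and 1.46% of its level in endothelial cells), with all 7 markers detected, and the Schwann list 164 and 175 CPM (4.89% and 5.73%), also with all 7 detected. The highest single Schwann marker made up 127 and 143 CPM of this. The mural list was highest at 318 and 265 CPM (2.41% and 2.37%), of which the highest single marker made up 251 and 198 CPM. The part of such cells or of free RNA in the values was not tested.

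The *Bmp4* and *Bmp7* values of *SM22-SmoM2* fibroblasts came largely from a small sub-cluster of DP-like cells. This sub-cluster held 47 *SM22-SmoM2* cells and no control cell, had all 12 DP markers raised and was led by *a* (agouti), *Ibsp* and *Cd24a*, with a median of 4636 UMIs per cell. It made up 4.28% of *SM22-SmoM2* fibroblasts and held 86.3% (78.0 to 92.3) of their *Bmp4* UMIs (88 of 102; 276 CPM, 221 to 340) and 64.5% (55.4 to 72.9) of their *Bmp7* UMIs (80 of 124; 251 CPM, 199 to 312). *Bmp4* was found in 28 and *Bmp7* in 30 of the 47 cells, 19 had both and 8 had neither; after thinning these were 20, 21, 10 and 16 cells. *Fst* was at 163 CPM (122 to 214) in these cells and *Nog* at 15.7 CPM (5.09 to 36.6) from 5 UMIs, so ligands and antagonists were present in the same sub-cluster. *Ptch1* stood at 326 CPM there.

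Without the DP-like cells, an alternative added after the data had been seen, the *Bmp4* and *Bmp7* values turned to the other side. This takes cells from 1 library alone, while the control kept its own sources of both ligands, described below. *Bmp4* then had 14 UMIs (1.15 CPM), a log2 ratio of -2.37 (-3.30 to -1.54), and *Bmp7* 44 UMIs (3.62 CPM), a log2 ratio of -1.23 (-1.77 to -0.72). In this comparison 4 members (*Bmp2*, *Bmp4*, *Bmp7* and *Grem1*) were at least 2-fold lower, against 6.36% of all genes, and 1 (*Nog*, log2 ratio 1.63) was higher, against 5.91% of all genes. The *Bmp4* and *Bmp7* calls follow from taking their main source out of 1 library alone. The values of *Bmp2* (-1.65), *Grem1* (-2.22), *Fst* (-0.66) and *Chrdl1* (0.74) stayed close to those of all fibroblasts. When the sub-clusters that led *Bmp7* (*Cst6*) and *Bmp4* (*Agtr2*) in the control were left out of both libraries as well, *Bmp7* had 36 UMIs (2.86 CPM) in control and 37 UMIs (3.05 CPM) in *SM22-SmoM2*, a log2 ratio of 0.09 (-0.61 to 0.79). The *Cst6* sub-cluster held 62 control and 3 *SM22-SmoM2* cells and the *Agtr2* one 85 and 0. Both were picked for their high control values, so leaving them out lowers the control side by construction. This value therefore cannot show whether *Bmp7* differed. *Bmp4* had 51 UMIs (4.06 CPM) and 14 UMIs (1.15 CPM), a log2 ratio of -1.82 (-2.78 to -0.94). The DP-like cells left out held 88 of 102 *SM22-SmoM2* fibroblast UMIs of *Bmp4*, and the *Agtr2* sub-cluster 31 of 84 control UMIs. The *Bmp4* value is thus shaped by the cells left out and cannot show whether *Bmp4* differed. Over these cells 3 members (*Bmp2*, *Bmp4* and *Grem1*) were lower, against 5.8% of all genes, and *Nog* was the 1 higher, against 6.23%. This count includes the *Bmp4* call with the limit just given.

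**Figure D2:**
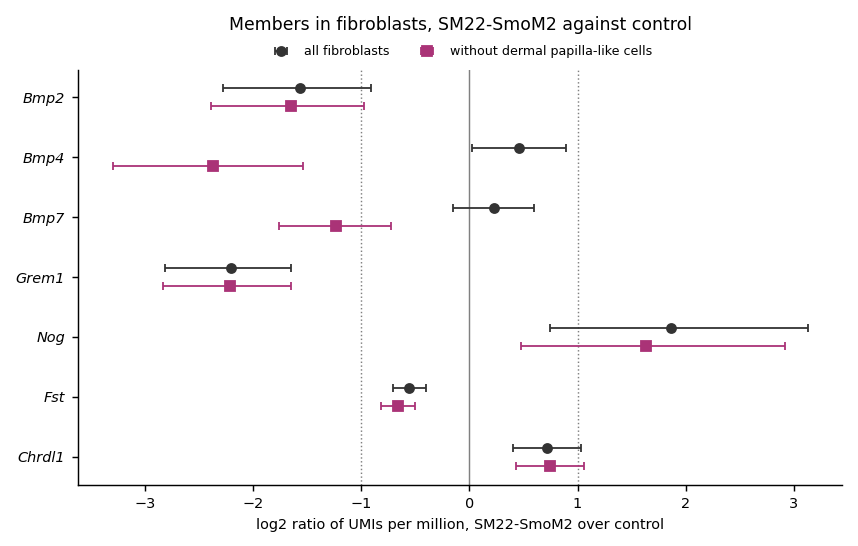
Log2 ratio of CPM, SM22-SmoM2 over control fibroblasts (horizontal axis), for the 7 members with at least 20 UMIs, over all fibroblasts (black circles) and without the dermal papilla-like cells (purple squares), with exact 95% intervals and dotted lines at 2-fold. Leaving out the 47 dermal papilla-like cells, all from the SM22-SmoM2 library, moves Bmp4 from 0.46 to -2.37 and Bmp7 from 0.22 to -1.23, while Grem1 goes from -2.21 to -2.22.

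Fibroblast sub-clusters, called here by their leading genes, differed in which members they carried. In the control library, *Bmp7* was led by the *Cst6*, *Trf* and *Gcg* sub-cluster of 62 control cells, with 84 of 120 UMIs (122 CPM, 97.7 to 152), where the next of the 8 control sub-clusters with at least 50 cells had 5.38 CPM. *Bmp4* was led by the *Agtr2*, *Angptl1* and *Fbln7* sub-cluster of 85 control cells (31 UMIs; 35.9 CPM, 24.4 to 51.0), followed by 8.36 CPM in the *C4b*, *Saa3* and *Gdf10* sub-cluster, with intervals that did not overlap. *Bmp2* was led by the *Cxcl2*, *Dlk1* and *Eln* sub-cluster (57 of 84 UMIs; 24.1 CPM, 18.3 to 31.3). That sub-cluster and the *Agtr2* one had no *SM22-SmoM2* cell. The *Cst6* one had 3, which held 7 of the 124 *Bmp7* UMIs of *SM22-SmoM2* fibroblasts, so its cells carried *Bmp7* in both libraries.

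Among the antagonists, *Chrdl1* was carried by the *C4b*, *Saa3* and *Gdf10* sub-cluster of 54 control cells (42 of 143 control UMIs; 87.8 CPM, 63.3 to 119), by the *Cst6* sub-cluster (29 control UMIs; 42.3 CPM, 28.3 to 60.7) and by the *Sfrp5*, *Cldn1* and *Ccdc3* sub-cluster. The last had 49 *Chrdl1* UMIs in 34 control cells (145 CPM, 107 to 192) and 134 UMIs in 208 *SM22-SmoM2* cells (54.6 CPM, 45.8 to 64.7). Within it *Chrdl1* was thus lower in *SM22-SmoM2*, opposite to all fibroblasts, in a sub-cluster that made up a larger part of the *SM22-SmoM2* fibroblasts and in which *Ptch1* stood at 107 CPM (control) and 273 CPM. *Fst* was led by the *Cxcl2* sub-cluster (145 CPM), the cycling-like sub-cluster led by *Gm26870*, *Ube2c* and *Ccnb1* (139 CPM) and the *Ccl21a*, *Pi16* and *Wnt2* sub-cluster (117 CPM) in control, and in *SM22-SmoM2* by the *Egfl6*, *Fam212a* and *Sox11* sub-cluster (124 CPM, 107 to 142) and the DP-like one. *Nog* was highest, after the DP-like cells, in the *Egfl6* sub-cluster with 13 of the 29 UMIs (7.81 CPM, 4.16 to 13.4), and the intervals of both overlapped.

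Of the sub-clusters, 3 had at least 50 cells of each library, and *Grem1* was lower in *SM22-SmoM2* in each of them. In the *Crabp1*, *Prss35* and *Mmp11* sub-cluster (264 control and 113 *SM22-SmoM2* cells) it was at 22 CPM and 9.28 CPM, a log2 ratio of -1.24 (-2.22 to -0.38), and it was the 1 lower of 2 members with enough UMIs there, against 5.1% of all genes, with 0 higher, against 2.95%. The cycling-like sub-cluster (57 and 71 cells) had 17.4 CPM and, from 2 UMIs, 2.10 CPM, a log2 ratio of -3.05 (-6.20 to -1.0). Here *Fst* was also lower (139 and 50.5 CPM, log2 ratio -1.47, -1.96 to -0.99), making both members with enough UMIs lower, against 7.1% of all genes, with 0 higher against 5.87%. In the *Mmp3*, *Ctla2a* and *Mmp13* sub-cluster (240 and 127 cells) *Grem1* had 35 UMIs (11.6 CPM) and 0 UMIs. With 3 counts put in for 0 it was 6.01-fold lower, and the interval of its log2 ratio lies below -2.21. It was the 1 lower of 3 members with enough UMIs, against 3.73% of all genes. *Chrdl1* was the 1 member higher there (2.65 and 14.2 CPM, log2 ratio 2.42, 1.19 to 3.79), against 2.28% of all genes. Summed over these 3 sub-clusters, *Grem1* had a log2 ratio of -2.15 (-3.03 to -1.37) and *Chrdl1* of 1.81 (0.86 to 2.82), whereas *Bmp2* stood at -0.19 (-1.73 to 1.19). The *Chrdl1* value rested on 15 control and 28 *SM22-SmoM2* UMIs, 8 and 22 of them in the *Mmp3* sub-cluster. The *Sfrp5* sub-cluster, in which *Chrdl1* was lower in *SM22-SmoM2*, had 34 control cells and is not in this sum. Of 5 members with enough UMIs, *Chrdl1* was the 1 higher over this sum, against 3.43% of all genes, and *Grem1* and, from 3 *SM22-SmoM2* UMIs, *Bmp4* (-1.75, -4.15 to 0.01) were the 2 lower, against 2.6%.

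**Figure D3:**
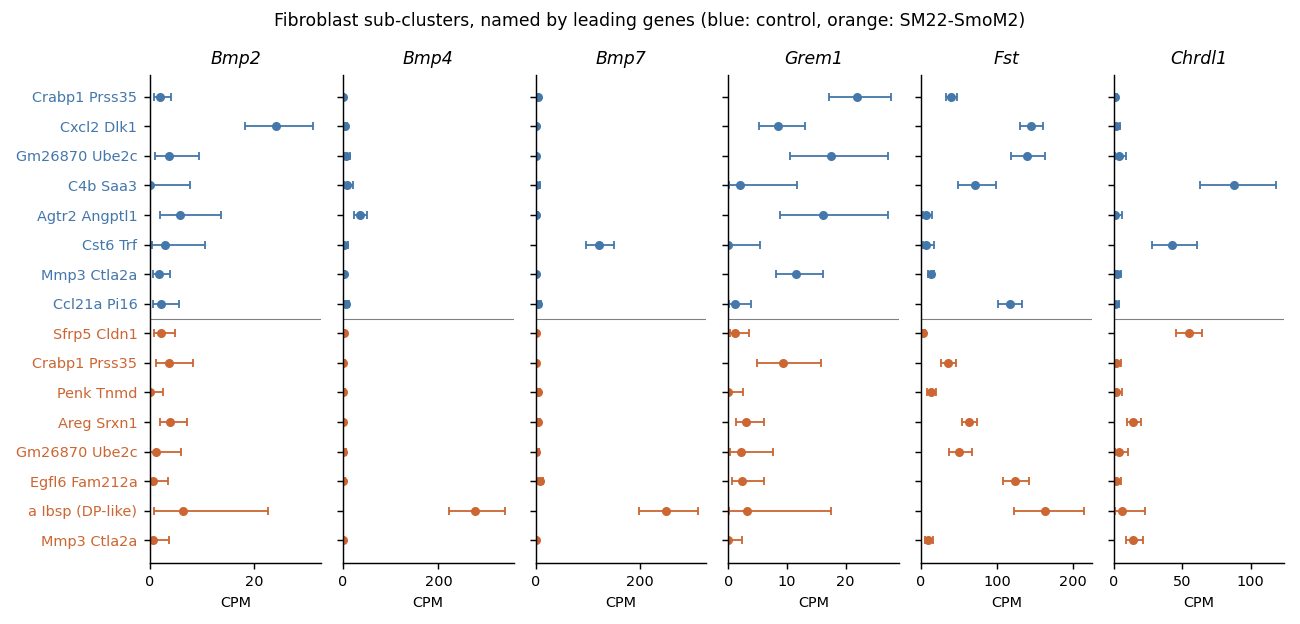
Summed CPM (horizontal axes, linear, a separate scale for each gene) of 6 members in fibroblast sub-clusters named by their leading genes (rows), for the control library above the line in blue and the SM22-SmoM2 library below it in orange, limited to groups of at least 40 cells, with exact Poisson 95% intervals. Bmp4 and Bmp7 stand highest in the dermal papilla-like row (276 and 251 CPM), and Bmp7 is also high in the control Cst6 row (122 CPM). The 3 SM22-SmoM2 cells of the Cst6 sub-cluster, with 7 Bmp7 UMIs, are too few to be drawn.

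Outside fibroblasts, *Bmp4* in endothelial cells differed little between the libraries (98.7 and 87.5 CPM, control first; log2 ratio -0.17, -0.44 to 0.08). *Bmp2* was lower in *SM22-SmoM2* endothelial cells, with 114 UMIs (17.2 CPM) and 11 UMIs (6.17 CPM), a log2 ratio of -1.48 (-2.52 to -0.58), but -0.37 in male cells alone. *Fst* had 57 and 2 UMIs in endothelial cells, a log2 ratio of -2.94 (-6.02 to -1.02). It rested on 29 control cells, 10 of which held 66.7% of the UMIs, and was -0.32 with no mitochondrial filter. These were the 2 members lower of 3 with enough UMIs, against 4.02% of all genes, and 0 were higher, against 1.52%.

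In Schwann cells, *Fst* was at 448 and 297 CPM, control first, a log2 ratio of -0.60 (-0.73 to -0.46), and it was found in 48.8% and 37.2% of thinned cells. *Nog* (37 and 10 UMIs; log2 ratio -0.66, -1.83 to 0.38) and *Chrdl1* (58 and 33 UMIs; 0.42, -0.25 to 1.06) had intervals that hold 0. None of the 3 passed 2-fold, where 1.93% of all genes were higher and 3.56% lower; no test was run, as for the other counts. In mural cells *Bmp5*, at 41 UMIs (21.9 CPM) and 4 UMIs (7.48 CPM), was the 1 lower of 3 members with enough UMIs, with a log2 ratio of -1.55 (-3.49 to -0.08), against 6.33% of all genes, and 0 were higher, against 2.09%. *Bmp2* (25.6 and 13.1 CPM; log2 ratio -0.97, -2.36 to 0.18) and *Fst* (48.6 and 35.5 CPM; -0.45, -1.25 to 0.27) did not pass. Scaling by the median of ratios removed a median log2 ratio over all genes of -0.104 in endothelial and -0.108 in mural cells and moved the share of 2-fold calls that were higher from 27.4% to 39.5% and from 24.8% to 35.3%.

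Within *SM22-SmoM2* fibroblasts, cells with *Ptch1* UMIs carried more *Bmp7* and *Chrdl1* than cells without. The question was whether the members followed Hh activity inside 1 library, with a *Ptch1* UMI taken as a sign of it. This sign is imperfect. *Ptch1* was also found in 14.6% of control endothelial cells, where *Gli1*, another Hh target, was at 0.151 CPM. Cells without a *Ptch1* UMI may hold undetected transcripts. *Ptch1* was found in 640 of 1099 cells (58.2%; median 11298 UMIs, 32 of them DP-like) and not in 459 (median 10218 UMIs, 15 DP-like). *Bmp7* was at 12.8 CPM with and 5.37 CPM without *Ptch1*, a log2 ratio of 1.26 (0.62 to 1.94). *Chrdl1* was at 21.2 and 9.50 CPM, a log2 ratio of 1.16 (0.68 to 1.66). Both intervals leave out 0, and without DP-like cells the log2 ratios were 2.03 (0.78 to 3.57) and 1.17 (0.69 to 1.67).

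The cells with and without *Ptch1* came from the sub-clusters in different proportions. In the *SM22-SmoM2* library *Ptch1* was found in 85.6% of the *Sfrp5* sub-cluster, which held 64.4% of the *Chrdl1* UMIs of fibroblasts, but in 12.4% of the *Crabp1* and 15% of the *Mmp3* sub-cluster. Inside the *Sfrp5* sub-cluster *Chrdl1* was at 54.0 CPM in 178 cells with and 60.0 CPM in 30 cells without *Ptch1*, a log2 ratio of -0.15 (-0.93 to 0.73). Inside the *Areg* sub-cluster it was at 17.4 and 8.56 CPM (29 and 8 UMIs), a log2 ratio of 1.02 (-0.14 to 2.36). The *Chrdl1* difference over all fibroblasts was thus not seen inside the sub-cluster that held most of its UMIs. *Bmp7* had fewer than 20 UMIs in each sub-cluster with at least 20 cells on both sides, so it was not compared in this way. The DP-like sub-cluster, with 64.5% of the *Bmp7* UMIs, had 15 cells without *Ptch1*, under that limit. Leaving it out took *Bmp7* from 98 to 38 UMIs with *Ptch1* and from 26 to 6 UMIs without. Whether *Bmp7* differed with *Ptch1* inside the sub-cluster that held most of its UMIs was thus not shown.

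*Nog* (23 and 6 UMIs; log2 ratio 1.28, -0.06 to 2.87) and *Bmp2* (19 and 6 UMIs; 1.00, -0.38 to 2.62) also passed 2-fold, with intervals that hold 0. In all, 4 of the 7 members with enough UMIs were higher with *Ptch1*, against 5.38% of all genes, and 0 were lower, against 2.78%. *Bmp4* was at 9.55 and 5.99 CPM (log2 ratio 0.67, 0.03 to 1.35), and *Grem1* at 2.49 and 2.48 CPM (0.00, -1.11 to 1.18). *Fst* was at 40.3 and 52.5 CPM (-0.38, -0.63 to -0.14) but turned to 0.29 when *Ptch1* and the members were read after thinning. Inside the *Egfl6* sub-cluster *Fst* was at 78.3 CPM in 114 cells with and 233 CPM in 58 cells without *Ptch1* (-1.57, -1.99 to -1.16). Inside the *Areg* sub-cluster it was at 65.4 and 59.9 CPM (0.13, -0.35 to 0.62), so the difference was not seen in both. Deeper cells are more often found with *Ptch1*. Among cells between the quartiles of depth (7168.5 to 14390 UMIs) 2 members, *Bmp7* (1.70) and *Chrdl1* (1.60), passed 2-fold. By the mean of per-cell CPM none did, with *Bmp7* at 0.98 and *Chrdl1* at 0.87. The share of all genes past 2-fold in these 2 settings is not given here, so these counts describe the members alone.

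In control fibroblasts *Ptch1* was found in 108 of 1090 cells (9.91%), and the same split gave 2 members higher, *Bmp7* and *Chrdl1*, against 4.29% of all genes, and 0 lower, against 5.43%. *Bmp7* was at 27.6 CPM with and 6.32 CPM without *Ptch1* (log2 ratio 2.13, 1.54 to 2.69), and *Chrdl1* at 21.4 and 8.84 CPM (1.28, 0.65 to 1.86). Here the *Cst6* sub-cluster, in which 27.4% of cells had *Ptch1*, held 70% of the *Bmp7* UMIs. The *Sfrp5* sub-cluster, in which 47.1% of control cells had *Ptch1*, held 34.3% of the *Chrdl1* UMIs. *Fst* was at 38.0 and 69.4 CPM (-0.87, -1.29 to -0.48), but inside the *Mmp3* sub-cluster at 24.2 and 11.1 CPM (1.12, -0.08 to 2.20). *Bmp4* (5 and 79 UMIs; -0.85, -2.52 to 0.43) and *Grem1* (10 and 152 UMIs; -0.80, -1.89 to 0.12) had intervals that hold 0. Over all fibroblasts and at full depth, *Bmp7*, *Chrdl1* and *Fst* thus had the same direction in both libraries. For *Fst* this depended on depth, since its *SM22-SmoM2* value was 0.29 when *Ptch1* and the members were read after thinning. The difference between the libraries in these splits was not tested.

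**Figure D4:**
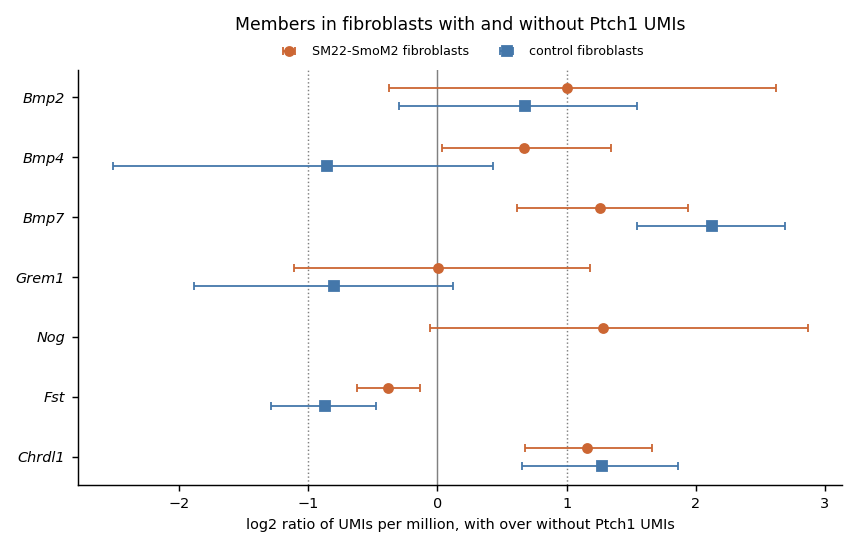
Log2 ratio of CPM in fibroblasts with over fibroblasts without Ptch1 UMIs (horizontal axis) for the members with at least 20 UMIs, in the SM22-SmoM2 library (orange circles) and the control library (blue squares; Nog has no value there), with exact 95% intervals and dotted lines at 2-fold. Bmp7 (1.26 and 2.13) and Chrdl1 (1.16 and 1.28) lie above 1 in both libraries, and Fst (-0.38 and -0.87) lies below 0 in both.

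Of 51 other genes of the BMP pathway, 39 had at least 20 UMIs in fibroblasts; 7 were higher in *SM22-SmoM2*, against 6.44% of all genes, and 4 lower, against 6.18%, with a median log2 ratio of -0.13 over these 39 against -0.06 over all genes. Among targets, 3 of 9 were higher and 1 was lower. *Id1*, an inhibitor of DNA binding that BMP-Smad signaling raises, was at 109 and 323 CPM, control first (log2 ratio 1.57, 1.48 to 1.65), *Id3* at 400 and 917 CPM (1.20, 1.15 to 1.24) and *Id4* at 9.42 and 27.6 CPM (1.55, 1.26 to 1.85). *Msx1*, a homeobox gene, was at 10.1 and 1.92 CPM (-2.39, -3.08 to -1.76). *Id2* stayed at 274 and 289 CPM (0.08, 0.01 to 0.15), so the *Id* genes did not move as 1 group.

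Of 5 other ligands with enough UMIs, *Bmp3*, a ligand known to oppose other BMPs, was higher (8.43 and 41.2 CPM, log2 ratio 2.29, 2.0 to 2.59), and *Gdf10* (16.1 and 7.29 CPM, -1.14) and *Inhbb*, an activin subunit (11.9 and 5.69 CPM, -1.07), were lower. Of 12 antagonists and modulators, *Sost*, which encodes the Wnt and BMP antagonist Sclerostin, had 0 UMIs in control and 116 UMIs (9.29 CPM) in *SM22-SmoM2*. Its log2 ratio was 5.45 with 3 counts put in for 0, with an interval that lies above 5.13. *Nbl1*, an antagonist of the DAN family, was lower (590 and 267 CPM, -1.14, -1.20 to -1.09). Of 11 receptors and co-receptors, the type II receptor *Acvr2b* (16 and 33 UMIs, 1.22, 0.32 to 2.18) and the co-receptor *Rgmb* (27.2 and 61.4 CPM, 1.18, 1.00 to 1.36) were higher and 0 were lower, and 0 of 5 Smads passed 2-fold. Without DP-like cells the list again had 7 higher (5.91% of all genes) and 4 lower (6.36%). Summed over the 3 sub-clusters shared by both libraries, 4 were higher (3.43% of all genes) and 2 lower (2.6%). Of the *Id* genes, *Id1* alone passed 2-fold there. *Gdf10*, lower over all fibroblasts, was the 1 higher of 5 other ligands, so *Bmp3* did not pass. Of 10 receptors and co-receptors with enough UMIs 0 passed 2-fold, and 1 of 5 Smads was higher.

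For each member with at least 200 UMIs, the genes with the most similar level over 25 groups (clusters split by library, at least 50 cells each) were named as a description; the groups share libraries and depth. *Bmp4* was most like *Lhx6* (Pearson r = 0.91), *Ncoa7* (0.89) and *Gcc2* (0.86), and *Bmp2* like *Vasp* (0.86), *Pfkl* (0.85) and *Peak1* (0.84). *Bmp7* was most like *Rspo1* (0.80), *Efnb1* (0.79) and *Pja1* (0.79), *Grem1* like *Crabp1* (0.82), *Me1* (0.77) and *Twsg1* (0.76), itself a BMP modulator, *Fst* like *Sphk1* (0.91), *Slc39a6* (0.91) and *Cd44* (0.88), and *Chrdl1* like *Apod* (0.82), *Sfrp1* (0.82) and *Vldlr* (0.81).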

How the data were processed

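Single-cell RNA-seq counts of Tomato+ wound dermal cells from 1 control and 1 *SM22-SmoM2* library were used. The deposited values are unscaled UMI counts, one per gene in each cell, made by the authors with bcl2fastq and Cell Ranger on mm10, per the submitters' processing notes, from confidently mapped, non-duplicate reads. The Cell Ranger version, the annotation and the strand counted are not given in the sources used here. The list of barcodes is that of the kit and could not be tied to matrix columns, so barcodes shared by libraries were not counted; among 4680 cells, 0 pairs had identical profiles.

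Cells needed at least 200 genes and at most 10% mitochondrial UMIs. Counts were scaled to 10000 per cell and logged, and k-means (scikit-learn 1.9.0, scanpy 1.11.5, 50 starts, 20 components of 2000 variable genes, 20 clusters, then 15 fibroblast sub-clusters) left out 78 members, BMP pathway and Hh genes. To be named, a cluster had to show 3 markers of a list at or above 10 CPM and 1.5 times their median over clusters. Sub-clusters whose 10 leading genes held 2 or more markers of another lineage, and more than of fibroblasts, were dropped as mixed. Both limits were chosen with the clusters in view, and rebuilt names may differ from the study's. Doublets were kept (Scrublet marked 6 control and 10 *SM22-SmoM2* cells, 0.210% and 0.558%, shares too low to show that the caller found them). Genes were placed with GENCODE M21, where 27645 of 27998 identifiers were found.

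The UMIs of each gene were added up over the cells of a class, separately for each library, and the sum was divided by the total UMIs of those cells. No test was possible with 1 library per condition. A count of 0 was replaced by 3 counts in a ratio, and no ratio was taken when both counts were 3 or fewer. Named genes were the 9 members, pathway genes at least 2-fold apart with 20 UMIs and an interval without 0 (at most 12), and, for members with 200 UMIs, the 3 most similar genes with at least 50 CPM in a group. The members, lists and motifs were chosen with earlier results of these data known. Alternatives were a 5% and no mitochondrial filter, Scrublet removal, Leiden clustering (resolution 1, 20 neighbours), male cells alone, thinning to 2500 UMIs (all cells were deep enough), the mean of per-cell CPM, median-of-ratios scaling, no filter on low counts, and other *Ptch1* splits. The exact intervals and the direction of ratios were checked on simulated counts drawn with counting error alone. Clumping of UMIs in few cells and differences between mice were not simulated, so the check does not cover them.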

Additional observations from a re-analysis of the deposited data

Results flagged for a closer look

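Some members had signal in cells that entered no comparison, above the level that a count of 0 allows (3 counts). In the 15 control cells of a cluster with keratinocyte markers, where that level is 10.2 CPM, *Fst* was at 651 CPM (191 UMIs), *Bmp7* at 51.2 CPM (15 UMIs) and *Bmp4* at 13.6 CPM (4 UMIs). *Fst* was thus above the level in control Schwann cells (448 CPM), the highest of the lineages compared, and *Bmp7* above that in control fibroblasts (8.50 CPM). The interval of the *Bmp4* count (1.09 to 10.2 UMIs) holds 3 counts, so *Bmp4* was not apart from that level beyond counting error.

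A cluster led by both mural genes (*Notch3*, *Rgs5*) and endothelial genes (*Flt1*, *Kdr*) was left unnamed and held 94 control and 44 *SM22-SmoM2* cells, deep at medians of 15609 and 13105.5 UMIs. Its control cells, with a level for 0 of 1.92 CPM, had *Bmp2* at 20.4 CPM, *Bmp4* at 68.3 CPM, *Bmp5* at 4.47 CPM and *Fst* at 17.9 CPM. Its *SM22-SmoM2* cells, with a level for 0 of 5.04 CPM, had *Bmp2* at 13.4 CPM, *Bmp4* at 35.3 CPM, *Bmp5* at 8.40 CPM and *Fst* at 31.9 CPM. The endothelial ligand *Bmp4* and the mural ligand *Bmp5* were thus both detected in it. *Bmp5* had 7 UMIs (2.81 to 14.4) in control and 5 UMIs (1.62 to 11.7) in *SM22-SmoM2* cells, intervals that hold 3 counts. Scrublet marked 1 of the 94 control and 0 of the 44 *SM22-SmoM2* cells, and the part of droplets that held an endothelial and a mural cell together was not tested, so both ligands in 1 cluster do not show both in 1 cell.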

How the results depend on the processing

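No paired analysis was possible because each condition has 1 library, and for the same reason no replicate could be left out. Of the log2 ratios of members recomputed, 192 stayed within the counting interval of the reported value and 24 moved. None of the differences reported as past 2-fold took the other sign, but *Bmp4* and *Bmp7*, within 2-fold over all fibroblasts, fell to -2.37 and -1.23 without DP-like cells, and *Bmp4* to -1.82 and *Bmp7* to 0.09 when their leading control sub-clusters were left out too. These values are shaped by the cells left out, which held much of both ligands, and cannot show whether either differed. Among counts of genes past 2-fold, 100 stayed within 1.5 times and 20 moved. The counts that follow are given without the share of all genes past 2-fold in each setting. They describe only how the calls depend on the processing. Members higher in fibroblasts went from 1 to 0 in male cells alone and after thinning. They went to 2 with no filter on low counts (*Bmp6*, whose value puts 3 counts in for 0, and *Nog*). Without the *C4b* sub-cluster they were also 2 (*Nog* and *Chrdl1*, the latter at 1.16). That sub-cluster held 42 of 143 control and 1 of 208 *SM22-SmoM2* fibroblast UMIs of *Chrdl1*. Leaving it out lowers the control side by construction, so the *Chrdl1* call cannot show whether *Chrdl1* differed. Members lower in fibroblasts went from 2 to 4 without DP-like cells, where *Bmp4* and *Bmp7* joined because their main source was taken out of 1 library alone. Members lower in endothelial cells went from 2 to 1 with no mitochondrial filter, in male cells and after thinning. Members lower in mural cells went from 1 to 2 with a 5% filter, with no filter and by the mean of per-cell CPM (*Bmp2* and *Bmp5*), and to 0 in male cells and after thinning. Members higher with *Ptch1* went from 4 to 2 after thinning (*Bmp4* and *Bmp7*) and between the quartiles of depth, and to 0 by the mean of per-cell CPM. Pathway genes lower in fibroblasts went from 4 to 2 with Leiden clustering, in male cells and over the 3 shared sub-clusters (*Nbl1* and *Msx1*), where pathway genes higher went from 7 to 4. The share of 2-fold calls over all genes that were higher with *Ptch1* went from 65.9% to 47.1% after thinning. In male cells *Fst* was at -0.82 in fibroblasts and in Schwann cells and at -0.87 in the *Ptch1* split. Apart from fewer cells or UMIs in the smaller sets, the cause was not tested. The added alternatives (without DP-like cells, also without the *Cst6* and *Agtr2* sub-clusters, without the *C4b* sub-cluster and over shared sub-clusters) were chosen after seeing the data. Depth limits *Bmp5*, *Bmp6* and *Nog*.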
